A study of Rattus norvegicus with 10 samples.

Results

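The genes described here encode the nuclear subunits of the mitochondrial respiratory chain and of ATP synthase, together with cytochrome c. They were chosen by name from a table of mRNA read counts. Rows were kept whose gene symbol starts with Ndufa, Ndufb, Ndufc, Ndufs, Ndufv, Uqcr, Cox4 to Cox8 or Atp5, along with Sdha to Sdhd, Cyc1 and Cycs, without the Ndufaf assembly factors. The row with the highest mean count stood for each symbol, and a row total of at least 44 reads was required. Of 81 symbols found, 78 passed, out of 22431 rows tested in all. Cox6a2, Cox6c-ps1 and Cox8c did not reach the minimum, with 26, 2 and 0 reads. Cyc1, Atp5mc3, Atp5mpl, Cox7a1, Cox7b2, Ndufa3, Ndufa8, Ndufa13, Ndufb1, Ndufc1 and Ndufs6 are not analysed here.

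At 3 months after injury the 78 genes were close to their level in sham-operated rats. None differed between the groups after adjustment for all rows tested. For the 74 genes with a mean of at least 10 CPM (reads scaled to a common library size, here by TMM), the log2 change lay between -0.20 and 0.15. Ndufs4, an accessory subunit that complex I needs for its assembly, was lower in every injured rat than in any sham rat, by 0.17 on the log2 scale, although the nearest rats were at 44.63 and 44.59 CPM. It was 1 of 78 genes (1.28%) without overlap between the groups, close to the 0.923% of all rows. Ndufa4l2, a hypoxia-inducible relative of a complex IV subunit, was higher by 0.42, and by 0.18 with the share of ribosomal RNA as a covariate. Both passed an unadjusted test only, and neither passed it with that covariate.

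The study asked how traumatic brain injury (TBI), a cause of acquired epilepsy, changes gene expression in the hippocampus. Adult male Sprague-Dawley rats had anaesthesia and craniectomy over the left parietal lobe, after which 5 rats received a lateral fluid percussion pulse of 3.32 atm through the intact dura and 5 sham rats received none. The left hippocampus was taken 3 months later, and the piece holding CA3 and dentate gyrus was sequenced for each of the 10 rats. The labels call the tissue dorsal hippocampus. They record neither the age in weeks nor seizures for single rats, so the injured group is defined by the injury and not by epilepsy. In such a piece of tissue, fewer cells of a type and less RNA per cell cannot be told apart.

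The respiratory chain passes electrons from NADH and succinate to oxygen and pumps protons across the inner mitochondrial membrane. Complex I oxidises NADH, complex II oxidises succinate, complex III hands the electrons to cytochrome c, and complex IV reduces oxygen. ATP synthase, also called complex V, lets the protons flow back and makes ATP. Neurons depend heavily on this supply to keep their ion gradients and synapses running. Subunits encoded in mitochondrial DNA are not among the genes described here.

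The libraries held 23425817 to 31671838 counts. Ribosomal RNA took 58.3% and 59.0% of them in sham replicates 5 and 4, and 12.5% to 26.2% in the other 8 rats, so it was higher in the sham group (38.7% ± 18.3 against 19.7% ± 5.23, SD, n = 5 each, two-sided exact permutation p = 0.0238). Counts outside ribosomal RNA were 12997547 and 12748961 in sham replicates 4 and 5, and 17869422 to 24737362 in the other 8 rats. Summed markers of CA1 pyramidal cells ranged from 66.6 to 139 CPM in sham rats and from 45.9 to 477 CPM in TBI rats. This field lies outside the dissected CA3 and dentate gyrus. The 4 detected dentate granule cell markers summed to 54.8 to 190 CPM in sham and 74.9 to 185 CPM in TBI rats. The 3 detected CA3 markers summed to 190 to 269 CPM in sham and 202 to 274 CPM in TBI rats. All 4 CA1 markers had a positive log2 change (median 1.23), and 2 had an unadjusted p under 0.05. All 4 dentate markers were negative (median -0.28), and 2 CA3 markers were positive and 1 negative (median 0.09), with 0 under 0.05 in either set. Of 8 neuron markers, 7 had a negative and 1 a positive log2 change, and 0 had an unadjusted p under 0.05. All 7 interneuron markers were negative and all 7 microglia and 5 of 6 astrocyte markers positive, with median log2 changes of -0.32, 0.27 and 0.20. The part of these differences in the results was not tested.

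Some promoters of the genes hold short motifs of factors known to drive nuclear genes for mitochondria, and examples are shown to let these motifs be seen beside the expression values. RefSeq promoter sequences of the GRCr8 build, from 250 bases before to 50 bases after the start site, were matched to 69 of the 78 genes. Both strands were searched for 4 motifs whose lengths were settled after promoters and expression had been seen. GCGCANGCG, a core of NRF1 sites, was in 17 of the 69 promoters (24.6%), against 12.0% of 10011 promoters of tested genes and 6.26% of all 27457 promoters. AAGATGGCG, a core of YY1 sites, was in 9 (13.0%, against 3.24% and 1.93%), and every match but that of Atp5pf ended past the start site. CCGGAAGT, a core of sites for GABPA and other ETS factors, was in 7 (10.1%, against 7.51% and 4.01%). TCAAGGTCA, the motif of estrogen-related receptors, was in the Sdhd promoter only (1.45%, against 0.230% and 0.412%). At least 1 motif was found in 32 promoters and 2 or more in 2, those of Uqcrc1 and Ndufa6, and 37 held none. The share of other promoters with at least 1 of the 4 motifs was not counted, so the 32 have no background. A match is a description of letters and not a measured binding site. Capitals mark the motif, on either strand, in windows of 30 bases written 5′ to 3′ on the strand of the gene. For NRF1 the windows come from cytochrome c, the catalytic subunit of complex II, a core subunit of complex III and the proton-carrying ring of ATP synthase:
Cycs (chr4:80984907-80984936, - strand): ccatgctagccCGCATGCGCgcgcaccttg
Sdha (chr1:30764453-30764482, + strand): gcgtttgcagaGCGCAGGCGcaccaccact
Uqcrc1 (chr8:118468149-118468178, + strand): cttccttacagCGCCTGCGCctcatactcc
Atp5mc2 (chr7:135678256-135678285, - strand): tggctctagtcGCGCATGCGcagagccttc
For YY1 they include the complex I genes Ndufs4 and Ndufs7, whose log2 changes below had opposite signs:
Ndufs4 (chr2:47794892-47794921, - strand): ttgcccacaggAAGATGGCGgcggtctcaa
Ndufs7 (chr7:10110476-10110505, - strand): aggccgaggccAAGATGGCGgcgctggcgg
Ndufb8 (chr1:253362897-253362926, - strand): cggagaaggtgAAGATGGCGgcgtcccggg
Uqcrc1 (chr8:118468211-118468240, + strand): acggaagttagAAGATGGCGgcgtccgcag
For GABPA they come from 2 subunits of complex IV:
Cox5b (chr9:46417807-46417836, + strand): cttgctctgtctgttcCCGGAAGTgcatct
Cox8a (chr1:213833663-213833692, - strand): atttccgaaatACTTCCGGgctgaggcgtc

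The YY1 match lay at bases 5 to 13 of the transcript in both Ndufs4 and Ndufs7, and from 111 to 103 bases before the start in Atp5pf. Apart from Atp5pf, the last base of the match lay within the transcript, from base 8 in Uqcrc1 to base 45 in Atp5mf. The core includes the letters ATG, and whether these matches are start codons of the coding sequence was not tested. The NRF1 match of Sdha lay from 89 to 81 bases before the start and that of Cycs from 158 to 150 bases before it. Changes of genes with and without a motif are described here without a test. The median log2 change was -0.03 for the 17 genes with the NRF1 core and -0.03 for those without it. With the YY1 core it was -0.02, with a range from -0.17 for Ndufs4 to 0.15 for Ndufs7, and without it -0.03. With the GABPA core the median was 0.03 and without it -0.03.

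The comparison of TBI with sham rats asked whether the respiratory chain is expressed at another level 3 months after injury. In edgeR's quasi-likelihood test with all 5 sham and 5 TBI rats, 0 of the 78 genes had a Benjamini-Hochberg adjusted p under 0.05. The background was 0% of all 22431 rows. The methods of the study give 3 sham and 5 TBI rats for this comparison, without naming them. Its own edgeR list for TBI holds genes with an adjusted p under 0.05, unlike the present fit of 10 rats. Without sham replicates 4 and 5, which leaves 3 sham and 5 TBI rats, the present fit also called 0 rows. The cause of the difference from the list of the study was not tested. DESeq2 called 0 of the 78 genes and 3 rows in all. At an unadjusted p under 0.05 there were 3 of the 78 genes (3.85%), fewer than the 7.89% of all rows. They were Ndufa4l2, Ndufs4 and Cox7a2l2. Of all rows, 4.89% were higher in TBI at this threshold and 3.00% were lower, against 1 and 2 of the 78 genes. The groups did not overlap for 1 gene, Ndufs4 (1.28%), against 0.923% of all rows.

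Changes were small and could be bounded, given the TMM scaling of the main analysis. Of the 78 genes, 30 had a positive and 48 a negative log2 change, with a median of -0.03 against -0.01 for all rows, of which 47.8% were positive. The log2 change was within 0.1 of zero for 53 genes and within 0.2 for 74. Its 95% confidence interval lay within 0.4 of zero for 73 genes and within 0.5 for 74. The median standard error was 0.0907, against 0.127 over all rows. The 4 genes whose interval reached beyond 0.5 were those under 10 CPM, Ndufa4l2, Cox4i2, Cox6b2 and Cox8b. The intervals do not include uncertainty of the scaling. Scaled by total counts outside ribosomal RNA, 74 genes were positive and 4 negative, with a median of 0.13 against 0.14 for all rows. The largest change among genes of at least 10 CPM was then 0.31.

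**Figure D1:**
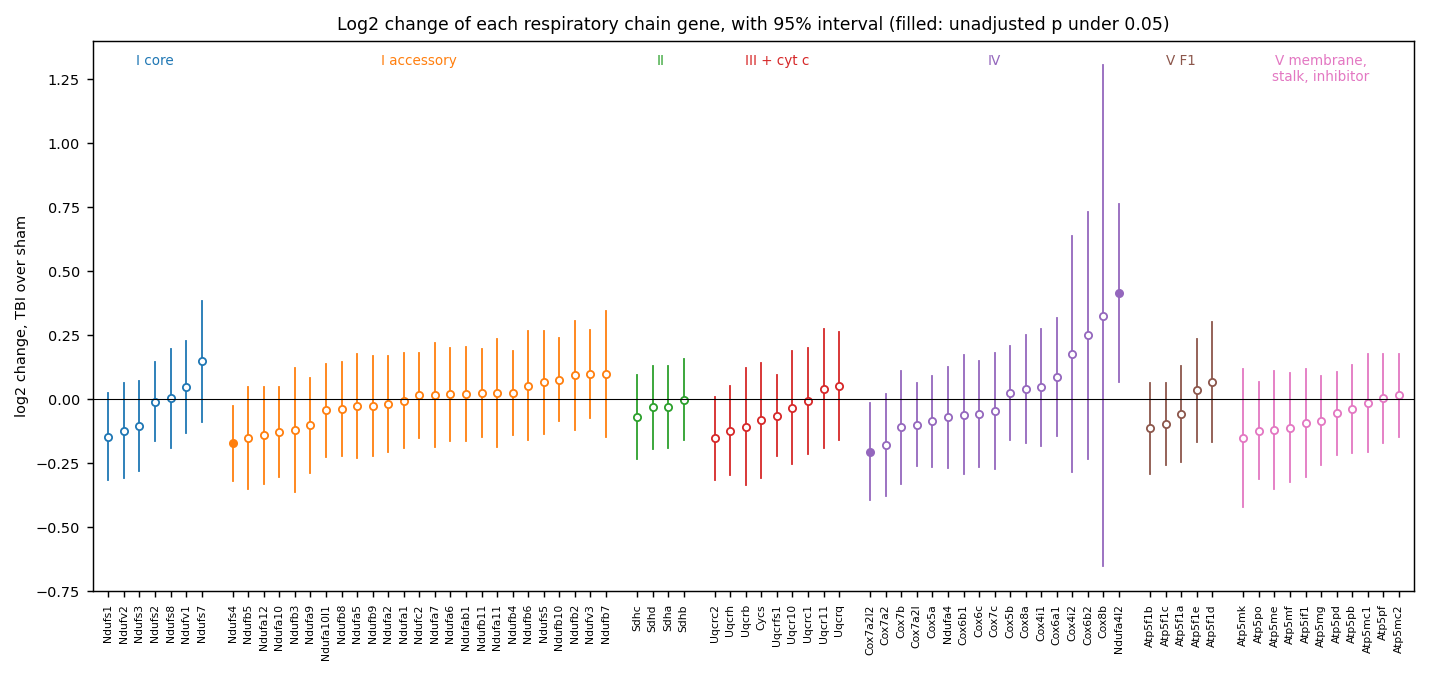
Log2 change of TBI over sham (vertical axis) for each of the 78 genes (horizontal axis), grouped by complex, with 95% confidence intervals and filled points at an unadjusted p under 0.05. The filled points are Ndufs4 (-0.17), Cox7a2l2 (-0.20) and Ndufa4l2 (0.42), and the widest intervals belong to the 4 genes under 10 CPM.

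The genes varied between rats of the same group more than between the groups. A score was taken as the mean over the 78 genes of log2 CPM, each gene centred on its mean over the 10 rats. It was 0.09, -0.02, -0.07, 0.09 and -0.04 in sham replicates 1 to 5, and -0.19, -0.09, 0.05, 0.0046 and 0.18 in TBI replicates 1 to 5. The lowest and the highest score thus both came from injured rats. In TBI replicate 1 only 3 of the 78 genes were above their own mean over the rats, and in TBI replicate 5 there were 71. Sham replicate 4 also had 71 genes above their mean and sham replicate 3 had 19. TBI replicates 1 and 2, with the lowest scores, held 283 and 477 CPM of CA1 markers, and TBI replicate 5, with the highest, held 181 CPM. TBI replicate 4, near the middle of the scores, held the fewest at 45.9 CPM. TBI replicates 1 and 2 also had the lowest neuron marker sums of all rats, at 2486 and 2343 CPM. Their astrocyte marker sums were the highest, at 3348 and 3174 CPM. TBI replicate 5 held 2785 CPM of neuron and 2642 CPM of astrocyte markers. Ribosomal RNA took 12.5% of counts in TBI replicate 5, the lowest share of all, and 59.0% in sham replicate 4, the highest share, where the score was also high. Whether these measures had a part in the spread was not tested.

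**Figure D2:**
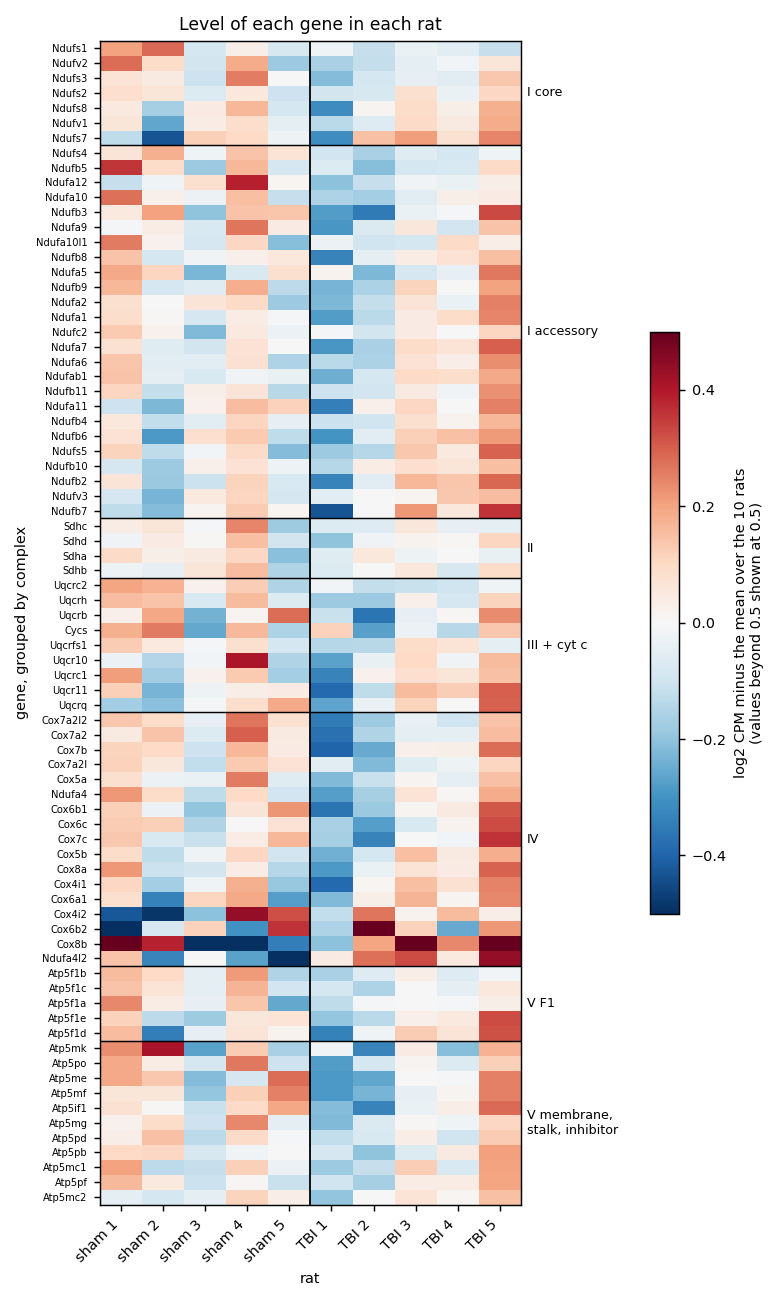
Log2 CPM of each of the 78 genes (vertical axis, by complex) in each rat (horizontal axis, 5 sham and 5 TBI rats), as the difference from the mean of the gene over the 10 rats, with values beyond 0.5 shown at 0.5. TBI replicate 1 is low for nearly all genes (3 of 78 above their mean) and TBI replicate 5 is high (71 of 78), and sham replicate 4 is as high by this count (71 of 78).

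Complex I is the entry point for electrons from NADH. Its 7 catalytic core subunits had log2 changes from -0.15 to 0.15, of which 3 were positive, and 0 had an unadjusted p under 0.05. Ndufv1, which binds NADH and carries the flavin, had the most reads among them. Its level was 184, 147, 181, 187 and 171 CPM in sham rats and 161, 169, 188, 182 and 201 CPM in TBI rats. The groups overlapped almost fully, with a log2 change of 0.05 (SE 0.0849).

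Ndufs7 holds the last iron-sulfur cluster before ubiquinone. It had the largest positive change among genes of at least 10 CPM. Sham rats had 110, 89.1, 131, 129 and 118 CPM and TBI rats 96.9, 133, 139, 127 and 143 CPM. Its lowest values were in sham replicate 2 and TBI replicate 1, and the groups overlapped. The log2 change was 0.15 (SE 0.113, edgeR quasi-likelihood adjusted p = 0.795). Without TBI replicate 1 it was 0.23.

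The 25 accessory subunits of complex I surround the core and serve its assembly and stability. Of these, 13 were positive and 12 negative, with a median log2 change of 0.02 and a range from -0.17 to 0.10. Ndufb8, a membrane-arm subunit, had the most reads among them, at 128 CPM ± 7.64 (SD, n = 5) in sham and 125 CPM ± 15.3 (SD, n = 5) in TBI rats. Its log2 change was -0.04 (SE 0.0875). Ndufa10 and Ndufa10l1, whose counts kept a ratio of 0.534 to 0.623 in every rat, may share reads, and their log2 changes were -0.13 and -0.04.

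Ndufs4 was the accessory subunit with an unadjusted p under 0.05. Loss of this subunit in mice causes an encephalopathy that resembles Leigh syndrome. It was at 47.3, 51.3, 44.63, 50.0 and 47.5 CPM in sham replicates 1 to 5. In TBI replicates 1 to 5 it was at 42.4, 40.4, 43.4, 42.7 and 44.59 CPM. Every TBI rat was thus below every sham rat, although the highest TBI rat and the lowest sham rat nearly met. The log2 change was -0.17 (SE 0.0696, 95% interval -0.32 to -0.03, unadjusted p = 0.0231, edgeR quasi-likelihood adjusted p = 0.569). With the ribosomal RNA share as a covariate it was -0.17 (unadjusted p = 0.0923, edgeR adjusted p = 0.974). Without sham replicates 4 and 5 it was -0.16 (unadjusted p = 0.0840, edgeR adjusted p = 0.878). Without sham replicate 2 or TBI replicate 2 the unadjusted p was also above 0.05, at 0.0603 and 0.0566 in edgeR's quasi-likelihood test, with changes of -0.15.

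**Figure D3:**
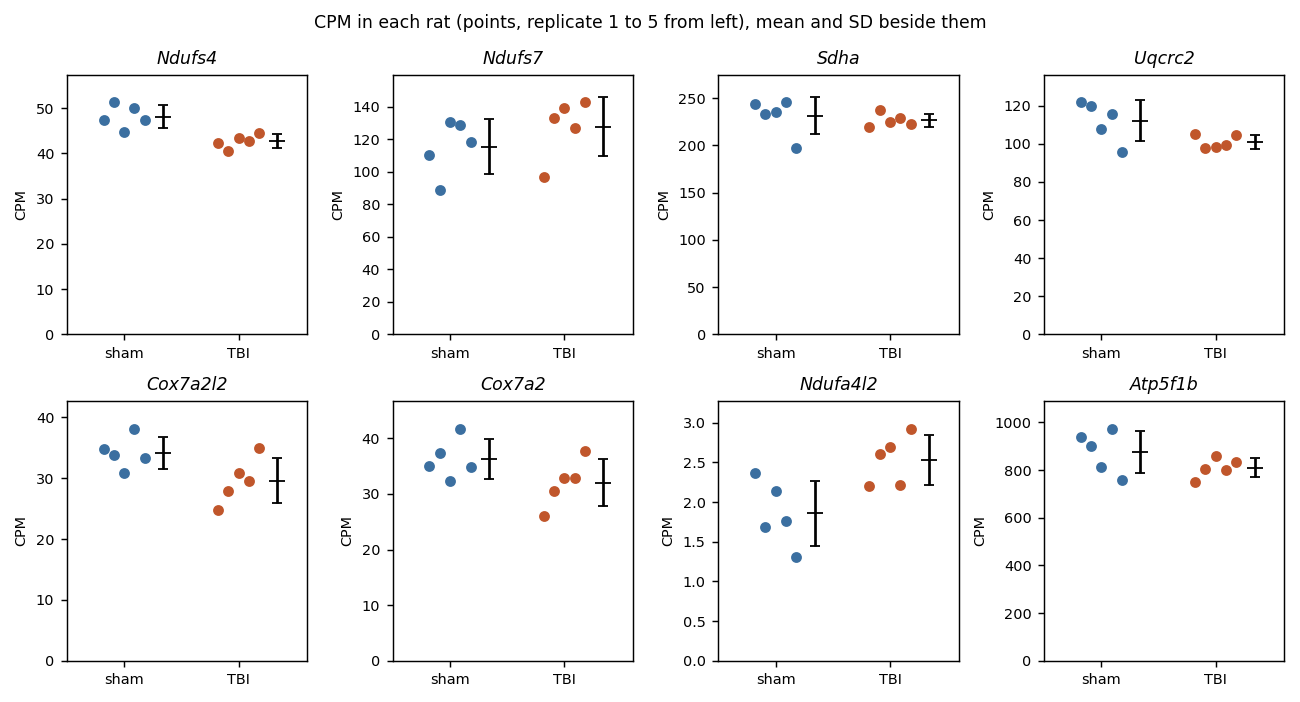
CPM (vertical axes, starting at 0) of 8 genes in each sham and TBI rat, with points for rats and bars for the mean and SD (n = 5). Ndufs4 is the gene whose groups do not overlap (44.63 CPM in the lowest sham rat and 44.59 CPM in the highest TBI rat), and Ndufa4l2 is shown at 1.31 to 2.93 CPM.

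Complex II is also an enzyme of the citric acid cycle, and all of its subunits are nuclear. All 4 genes had a negative log2 change, the largest at -0.07 for Sdhc. None had an unadjusted p under 0.05. Sdha, the flavoprotein that oxidises succinate, was at 244, 233, 236, 246 and 198 CPM in sham rats and at 219, 237, 225, 229 and 223 CPM in TBI rats. Only sham replicate 5 stood apart, below all other rats of either group. Sdha had a log2 change of -0.03 (SE 0.0758).

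Complex III and cytochrome c carry electrons from ubiquinone to complex IV. Of their 9 genes, 2 were positive and 7 negative, with a median log2 change of -0.06 and a range from -0.15 to 0.05. Cycs, cytochrome c itself, was at 32.8, 34.7, 24.2, 32.4 and 26.0 CPM in sham rats and at 31.4, 24.0, 28.3, 26.3 and 31.8 CPM in TBI rats, which overlapped. Uqcr11, a small subunit, had the most reads and was at 260 CPM ± 22.9 (SD, n = 5) in sham and 267 CPM ± 48.0 (SD, n = 5) in TBI rats. Its spread was wider among TBI rats, from 199 CPM in replicate 1 to 321 CPM in replicate 5.

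Uqcrc2, a core subunit of complex III named here after its values were seen, had the most negative change of this group at -0.15 (SE 0.0773, unadjusted p = 0.0656, edgeR quasi-likelihood adjusted p = 0.663). Sham rats had 122, 120, 108, 116 and 95.5 CPM and TBI rats 105, 97.6, 98.4, 99.2 and 105 CPM. Sham replicate 5 was the lowest of all rats, and the other 4 sham rats were above every TBI rat. Without sham replicates 4 and 5 the change was -0.20 (unadjusted p = 0.0311, edgeR quasi-likelihood adjusted p = 0.878).

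Complex IV, cytochrome c oxidase, has nuclear subunits that come as tissue isoforms. Among its 17 genes, Ndufa4 and Ndufa4l2 included, 8 were positive and 9 negative, with a median log2 change of -0.05. Cox4i1, the widely expressed form of subunit 4, had the most reads, at 464, 383, 425, 488 and 378 CPM in sham rats and 330, 435, 478, 454 and 512 CPM in TBI rats. TBI rats held both the lowest and the highest value. Its log2 change was 0.05 (SE 0.108). The common forms of subunits 6a, 6b and 8, Cox6a1, Cox6b1 and Cox8a, had log2 changes of 0.09, -0.06 and 0.04, each less than its standard error.

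Cox7a2, the form of subunit 7a outside muscle, and Cox7a2l2, a gene model with a similar name, had nearly the same counts. The ratio of Cox7a2l2 to Cox7a2 was 0.902 to 0.995 in every rat, so reads may have been shared between near-identical copies and the pair cannot be read as separate results. Cox7a2l2 was at 34.8, 33.8, 30.8, 38.1 and 33.4 CPM in sham rats and at 24.8, 27.9, 30.8, 29.6 and 34.9 CPM in TBI rats. TBI replicate 1 was the lowest and the groups overlapped. Its log2 change was -0.20 (SE 0.0907, unadjusted p = 0.0365, edgeR quasi-likelihood adjusted p = 0.614). Without TBI replicate 1 it was -0.15 (edgeR quasi-likelihood unadjusted p = 0.103), and the unadjusted p was also above 0.05 without sham replicates 1, 2 or 4 or TBI replicates 2 or 4. With the ribosomal RNA share as a covariate it was -0.19 (unadjusted p = 0.137, edgeR adjusted p = 0.974), and without sham replicates 4 and 5 it was -0.16 (unadjusted p = 0.163, edgeR adjusted p = 0.899). Cox7a2 changed by -0.18 (SE 0.0952, edgeR quasi-likelihood adjusted p = 0.684).

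Ndufa4l2 had the lowest p of the 78 genes. The protein is a relative of Ndufa4, a subunit first assigned to complex I and later to complex IV. Ndufa4 was at 136 CPM ± 13.7 (SD, n = 5) in sham and 130 CPM ± 16.4 (SD, n = 5) in TBI rats, with a log2 change of -0.07 (SE 0.0940). Ndufa4l2 was at 2.37, 1.69, 2.14, 1.77 and 1.31 CPM in sham replicates 1 to 5, from 21 to 76 reads per rat. In TBI replicates 1 to 5 it was at 2.20, 2.61, 2.70, 2.21 and 2.93 CPM, from 70 to 113 reads per rat. Sham replicate 1 was above TBI replicates 1 and 4, and the other 4 sham rats were below every TBI rat. The log2 change was 0.42 (SE 0.165, 95% interval 0.07 to 0.76, unadjusted p = 0.0213, edgeR quasi-likelihood adjusted p = 0.555). Without sham replicate 2, sham replicate 5 or TBI replicate 5 it was 0.37, 0.33 and 0.36, with unadjusted p of 0.0529, 0.0606 and 0.0574 in edgeR's quasi-likelihood test. Sham replicates 4 and 5, both rich in ribosomal RNA, had the fewest reads of this gene. They also had the fewest counts outside ribosomal RNA, 12997547 and 12748961. In CPM, sham replicate 4 (1.77) was above sham replicate 2 (1.69). Without sham replicates 4 and 5 the change was 0.29 (unadjusted p = 0.114, edgeR adjusted p = 0.894). With the ribosomal RNA share as a covariate it was 0.18 (unadjusted p = 0.353, edgeR adjusted p = 0.974).

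In brain, Ndufa4l2 and Cox4i2 are known as genes of mural cells, the pericytes and smooth muscle of vessels. The 6 listed mural cell markers had log2 changes from -0.09 to 0.12, of which 5 were positive and 0 had an unadjusted p under 0.05. They summed to 34.6 to 50.5 CPM in sham rats and 39.1 to 50.7 CPM in TBI rats. Their part in the Ndufa4l2 values was not tested.

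Ratios of paralogues within a rat do not depend on the scaling of the libraries, and 4 were compared. Per 100 reads of Ndufa4 there were 1.36 ± 0.288 reads of Ndufa4l2 in sham and 1.96 ± 0.196 in TBI rats (SD, n = 5 each, two-sided exact permutation p = 0.0159, adjusted over the 4 ratios 0.0635). Sham replicate 3 at 1.77 was above TBI replicate 4 at 1.67, and the groups otherwise did not overlap. The ratio uses the Ndufa4l2 reads already described and is no independent support. Without sham replicates 4 and 5 the difference fell from 0.593 to 0.453 (two-sided exact permutation p = 0.0714). Fewer rats allow fewer splits and raise the smallest possible p, so this p cannot be set beside that of all rats.

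The other tissue isoforms of complex IV were also scarce. Per 100 reads of Cox4i1 there were 0.228 ± 0.0736 reads of Cox4i2, the lung and hypoxia form, in sham and 0.240 ± 0.0360 in TBI rats (SD, n = 5 each, two-sided exact permutation p = 0.778). Cox4i2 was at 0.683 to 0.845 CPM in sham replicates 1 to 3, at 1.36 and 1.25 CPM in replicates 4 and 5, and at 0.899 to 1.20 CPM in TBI rats. Its log2 change was 0.18 with all rats and 0.48 without sham replicates 4 and 5 (unadjusted p = 0.0464, edgeR quasi-likelihood adjusted p = 0.878). Per 100 reads of Cox6b1 there were 0.812 ± 0.235 reads of Cox6b2, the testis form, in sham and 1.00 ± 0.327 in TBI rats (SD, n = 5 each, two-sided exact permutation p = 0.341). Cox8b, the form of heart and muscle, had 0 to 12 reads per rat, and no difference was detectable at this depth.

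**Figure D4:**
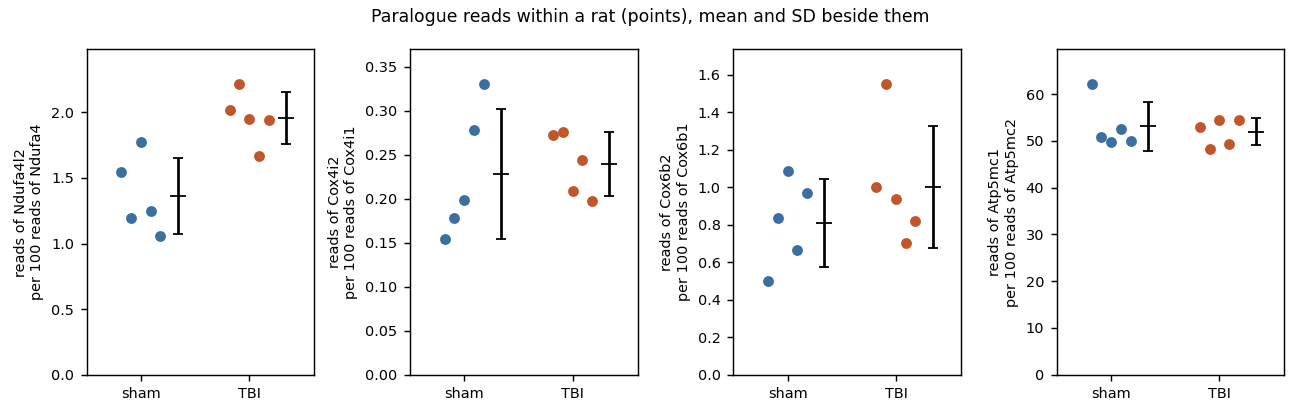
Reads of a paralogue per 100 reads of its common form (vertical axes, starting at 0) in each sham and TBI rat, with bars for the mean and SD (n = 5). Ndufa4l2 is at a mean of 1.36 in sham and 1.96 in TBI rats per 100 reads of Ndufa4, with sham replicate 3 above TBI replicate 4, and the other 3 ratios overlap widely.

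ATP synthase consists of a catalytic F1 head and a membrane part joined by stalks. The 5 genes of the F1 head and its central stalk had log2 changes from -0.11 to 0.07, of which 2 were positive. Atp5f1b, the catalytic beta subunit, had the most reads of the 78 genes. It was at 937, 899, 812, 973 and 757 CPM in sham rats and at 750, 803, 860, 802 and 832 CPM in TBI rats. The 3 highest values were in sham rats, and the groups overlapped. Its log2 change was -0.11 (SE 0.0850, edgeR quasi-likelihood adjusted p = 0.788).

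Of the 11 genes of the membrane part, the outer stalk and the inhibitor, 2 were positive and 9 negative, with a median log2 change of -0.08. Atp5pd, a subunit of the outer stalk, had the most reads among them and was at 114 CPM ± 8.18 (SD, n = 5) in sham and 110 CPM ± 8.20 (SD, n = 5) in TBI rats. Atp5mc1 and Atp5mc2 encode the same mature ring protein. There were 53.1 ± 5.16 reads of Atp5mc1 per 100 reads of Atp5mc2 in sham and 51.9 ± 2.90 in TBI rats (SD, n = 5 each, two-sided exact permutation p = 0.754). Atp5if1, which blocks the enzyme from running backwards, was named after its values were seen and changed by -0.09 on the log2 scale (SE 0.101).

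Factors that assemble these complexes had log2 changes of similar size. Of 43 assembly factors tested, 14 were positive and 29 negative, with a median log2 change of -0.05. Those with an unadjusted p under 0.05 were 4 (9.30%), all lower in TBI, against 7.89% of all rows in either direction and 3.00% lower. They were Ndufaf7 (-0.23) and Tmem126b (-0.24) for complex I, Sdhaf2 (-0.22), which attaches the flavin to Sdha, and Atpaf1 (-0.18) for the F1 head. None had an adjusted p under 0.05 (edgeR quasi-likelihood, smallest 0.548).

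Among 16 regulators of mitochondrial genes, 7 were positive and 9 negative. Ppargc1b, a coactivator of mitochondrial biogenesis, was the gene with an unadjusted p under 0.05, at 2.98 CPM in sham and 2.28 CPM in TBI rats, a log2 change of -0.39 (SE 0.172). The factors whose motifs are shown above had log2 changes of 0.19 for Nrf1, 0.20 for Yy1, -0.05 for Gabpa and 0.07 for Esrra. All 4 had an unadjusted p above 0.05, from 0.0930 for Yy1 to 0.644 for Gabpa in edgeR's quasi-likelihood test. Of 16 genes of the citric acid cycle and pyruvate dehydrogenase, 2 were positive and 14 negative. Their median log2 change was -0.08 and 0 had an unadjusted p under 0.05.

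Other abundant housekeeping sets gave a yardstick. Of 73 cytosolic ribosomal protein genes, 60 were positive, with a median log2 change of 0.06, and 3 had an unadjusted p under 0.05. Of 30 constitutive proteasome subunits, 5 were positive, with a median of -0.06, and 0 had an unadjusted p under 0.05. The proteasome genes also followed the rats: 2 of 30 were above their mean over the rats in TBI replicate 1 and 28 in TBI replicate 5. Whether the respiratory chain differs from either set was not tested.

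The direction of the 78 genes depended on the rats and on the scaling. Without TBI replicate 1, 41 genes were positive, with a median of 0.01, and without TBI replicate 5 only 12 were, with a median of -0.07. Scaling by total counts, which counts ribosomal RNA as library size, made all 78 genes positive, with a median of 0.48, and moved the median of all rows to 0.50. Relative to that median 34 of the 78 genes were higher, against 33 with TMM. Under each of the 21 settings the share of the 78 genes at an unadjusted p under 0.05 was below the share of all rows. In some the shares were close, such as 6.41% against 6.50% without TBI replicate 5 and 3.85% against 4.41% with the ribosomal RNA covariate. The settings refit the same rats and are not independent of each other.

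**Figure D5:**
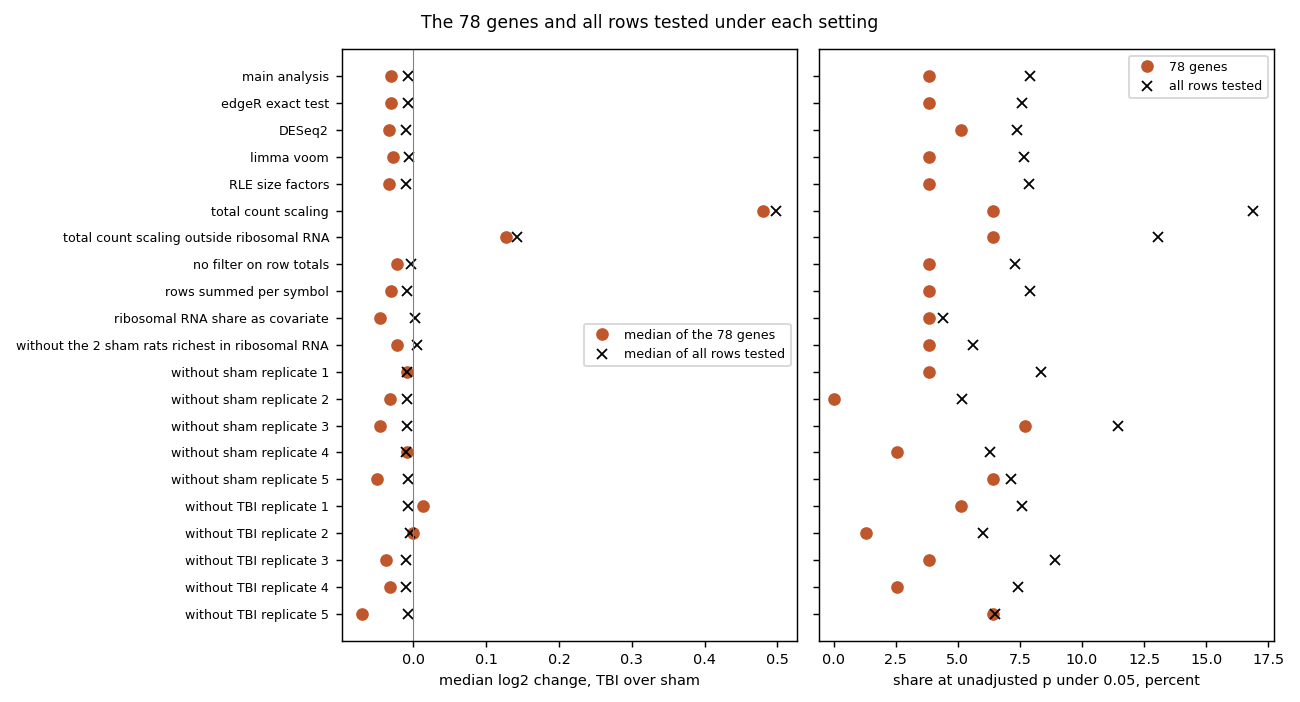
Left, median log2 change of the 78 genes (points) and of all rows tested (crosses) under each setting, and right, the share of each at an unadjusted p under 0.05, in percent. Scaling by total counts moves the medians to 0.48 and 0.50, and the points on the right lie left of the crosses under each setting.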

How the data were processed

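Poly-A mRNA of 10 rats was sequenced as single reads of 36 bases. The authors aligned reads with BWA to build rn4 (per the labels) and deposited raw counts per RefSeq RNA record, not normalized and not pooled. Counting was not stated to use strand. An empty entry and the unmapped reads, 12.8% to 26.1% of reads, were left out. Rows were named by RefSeq accession (57.7% of rows tested). The table of names holds a pseudogene for 37 of the 78 genes, whose reads may be mixed.

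Rows with at least 44 reads in total, the 30th percentile as in the methods of the study, were fitted in edgeR 4.0.16 under R 4.3.3 (TMM, robust quasi-likelihood, glmQLFTest), with Benjamini-Hochberg adjustment over all 22431 rows. Ratios were compared by exact permutation over 252 splits of the 10 rats with scipy 1.17.1, where the smallest p is 0.00794. Scores used log2 CPM with a prior count of 2. Each rat was processed on its own, and replicate numbers follow sample order. The procedure was tested on simulated data. Figures were drawn with matplotlib 3.10.9.

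Genes and lists were chosen with earlier results of these data known. Named were genes with an unadjusted p under 0.05, the gene with most reads in each group of subunits, isoforms, the largest changes among genes of at least 10 CPM, and those under 0.05 in the other lists. Alternatives were edgeR's exact test, voom in limma 3.58.1, DESeq2 1.42.0, other size factors, filters and rows, ribosomal RNA as a covariate, and leaving out rats. Leaving out rats from the ratio of Ndufa4l2 to Ndufa4 was added after seeing the data. Promoters were those of RefSeq on GRCr8, another build than that of the counts.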

Additional observations from a re-analysis of the deposited data

Results flagged for a closer look

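Sdha in sham replicate 5 stood far below the other sham rats, at 198 CPM against 233 to 246 CPM. On the log2 CPM scale the gap to the nearest sham rat was 0.761 of the range of the group, above the limit of 0.71 for 5 samples. Over the 62 groups examined in this way, 1 value passed, and chance passes about 1 in 20 groups, or 3.1 here. Sham replicate 5 was also the lowest of all rats for Uqcrc2, at 95.5 CPM, and ribosomal RNA took 58.3% of its counts. The part of ribosomal RNA in these values was not tested.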

How the results depend on the processing

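No setting gave any of the 78 genes an adjusted p under 0.05 (edgeR, DESeq2 and limma). With TMM the count at an unadjusted p under 0.05 was 3. It was 3 to 4 under the other tests, RLE size factors, no filter, summed rows, the ribosomal RNA covariate and leaving out both sham rats richest in ribosomal RNA. Under the last 2 settings the genes were Cox4i2, Ndufs1 and Uqcrc2, and none of Ndufs4, Cox7a2l2 and Ndufa4l2 remained. Ndufs1 then had unadjusted p of 0.0435 and 0.0473 (edgeR quasi-likelihood, adjusted 0.974 and 0.878). Under total count scaling it was 5 and the median log2 change was 0.48, and Ndufs4 and Cox7a2l2 reversed to 0.33 and 0.32. Under total counts outside ribosomal RNA it was 5 and the median was 0.13. Both scalings also moved the median of all rows, to 0.50 and 0.14. Leaving out 1 rat gave 0 to 6 genes and medians from -0.07 to 0.01, with 0 without sham replicate 2, 6 without sham replicate 3, 1 without TBI replicate 2, and 5 without sham replicate 5 or TBI replicate 5. The cause was not tested. Ndufs4, Cox7a2l2 and Ndufa4l2 kept an unadjusted p under 0.05 in 8, 4 and 7 of the 10 fits that left out 1 rat. Spread between rats and depth gave the 78 genes a median standard error of 0.0907 on the log2 scale. No paired analysis was possible because replicate numbers follow sample order and do not pair rats.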

Other observations

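Carriers, porins and shaping proteins of the mitochondrial membranes, which supply the respiratory chain, mostly did not pass an unadjusted test. Of 24 tested, 3 had a positive and 21 a negative log2 change, with a median of -0.08. At an unadjusted p under 0.05 there were 2 (8.33%), 1 higher and 1 lower in TBI, close to the 7.89% of all rows. Ucp2, an inner-membrane carrier of the uncoupling protein family, was at 48.2 CPM in sham and 57.7 CPM in TBI rats, a log2 change of 0.26 (SE 0.0913, edgeR quasi-likelihood adjusted p = 0.511). Slc25a14, another carrier of this family, was at 19.7 CPM in sham and 17.2 CPM in TBI rats, with a log2 change of -0.20 (SE 0.0898, edgeR quasi-likelihood adjusted p = 0.620). The groups overlapped for both genes. The 7 listed microglia markers all had a positive log2 change, from 0.18 to 0.34, and 3 had an unadjusted p under 0.05, and their part in the Ucp2 value was not tested.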
